A study of Mus musculus with 6 samples.

Results

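Oocyte transcription factors are the DNA-binding and core promoter proteins that switch on the genes of the egg. The 7 genes described here are Figla, Nobox, Sohlh1, Sohlh2, Lhx8, Taf4b and Tbpl2. They were picked out by gene symbol, as a set chosen with earlier results of these data known, and make up 7 of the 25239 genes in the deposited count table. Transcripts were counted in 3 libraries from water-injected and 3 from phthalate-injected mouse oocytes of the germinal vesicle (GV) stage, fully grown but not yet resuming meiosis. The mice were CD-1 females, an outbred strain, aged 4 to 6 weeks. Oocytes still enclosed in cumulus cells received an injection of water or of mixed phthalate metabolites, the breakdown products of plasticizers, and both groups were then cultured with serum (10%) and follicle-stimulating hormone (200 mIU/mL) until collection. The dose, the members of the mixture and the culture time are not given in the labels. The comparison of the groups asks how the mixture acts on oocyte transcripts.

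The factors work in a cascade. Sohlh1 and Sohlh2 encode basic helix-loop-helix proteins of germ cells in early follicles, and Figla encodes another protein of that class, which activates the genes of the egg coat. Nobox and Lhx8 encode homeodomain proteins required for the growth of the primordial follicle. Tbpl2 encodes the oocyte relative of the TATA-binding protein, which takes over core promoter recognition in growing oocytes, and Taf4b encodes a gonad-enriched subunit of the general factor TFIID. Transcription is largely silent in fully grown GV oocytes, so their messenger RNA is mostly a store laid down during growth.

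Basic helix-loop-helix proteins bind the E-box (letters CANNTG), homeodomain proteins bind TAAT cores (searched as TAATTG and TAATTA), and the TATA box was searched as TATAAA. The 250 bases before the RefSeq start site (GRCm38.p6) were read on both strands for 6 of the 7 genes. The table held no entry for Taf4b. RefSeq and GENCODE place some starts differently: the Figla window lies inside the GENCODE span of that gene, and part of the Lhx8 window lies in a GENCODE exon of Lhx8, so the window is shown without those bases. Shown are the windows of the 3 factors with the highest levels, and for contrast that of Sohlh1, which was counted in no library. They lie at chr6:43309555-43309804 (minus strand, Nobox), chr3:154330660-154330810 (minus strand, Lhx8, 151 of the 250 bases), chr6:86016941-86017190 (plus strand, Figla) and chr2:25847249-25847498 (minus strand, Sohlh1). Each is printed 5′ to 3′ on the strand of its gene, with E-boxes in capitals.
Nobox: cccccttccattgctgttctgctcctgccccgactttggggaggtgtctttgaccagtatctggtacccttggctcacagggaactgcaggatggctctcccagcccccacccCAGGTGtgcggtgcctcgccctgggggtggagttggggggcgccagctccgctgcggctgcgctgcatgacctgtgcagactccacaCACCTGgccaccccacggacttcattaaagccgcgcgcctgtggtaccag
Lhx8: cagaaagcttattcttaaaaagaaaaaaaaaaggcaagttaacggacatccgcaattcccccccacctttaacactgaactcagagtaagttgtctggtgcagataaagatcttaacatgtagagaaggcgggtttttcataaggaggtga
Figla: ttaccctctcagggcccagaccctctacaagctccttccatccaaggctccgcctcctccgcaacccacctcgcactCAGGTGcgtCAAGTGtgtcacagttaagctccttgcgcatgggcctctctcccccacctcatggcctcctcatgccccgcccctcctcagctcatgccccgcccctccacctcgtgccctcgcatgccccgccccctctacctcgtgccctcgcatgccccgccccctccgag
Sohlh1: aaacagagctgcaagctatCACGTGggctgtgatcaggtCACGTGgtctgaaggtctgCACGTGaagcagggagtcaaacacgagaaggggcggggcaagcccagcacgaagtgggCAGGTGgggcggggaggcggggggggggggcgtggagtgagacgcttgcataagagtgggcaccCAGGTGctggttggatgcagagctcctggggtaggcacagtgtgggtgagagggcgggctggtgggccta

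E-boxes began at -137 and -50 from the start site in Nobox, at -173 and -164 in Figla, and at -231, -211, -192, -134 and -70 in Sohlh1, while the Lhx8 window held 0. The window of Tbpl2 held 4 and that of Sohlh2 held 1. An E-box is common, with at least 1 match in 66.2% of the 32851 promoter windows of this length. TAATTG was found in 7.17%, TAATTA in 4.84% and TATAAA in 12.4% of all windows, and in 0 of the 6 windows of these factors. The E-box and TAATTA read the same on both strands, and no match of one motif overlapped another in these windows. Sohlh1 with 5 E-boxes had no counts, and Lhx8 with 0 was counted in every library. Whether the number of E-boxes bears on the transcript level was not tested.

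The libraries held 252267 to 300917 gene counts each. Oocyte transcripts were abundant in all 6 libraries, with 2184 to 3296 counts of Gdf9 and 575 to 1180 of Zp3. The 20 cumulus and granulosa markers summed to 13 to 39 counts in the water libraries and to 10 to 27 in the phthalate libraries, mostly from Nr5a2, and 9 of them, Amh, Foxl2, Star, Hsd3b1, Nr5a1, Gja1, Ptgs2, Ptx3 and Tnfaip6, were at 0. The labels name no animal or culture, and their protocol can be read as a single oocyte for each group. "Water oocyte 1" and the like are therefore names of libraries taken from the titles, and libraries of a group may share an oocyte. Each group therefore counts as 1 sample, no difference between the groups was tested, and the 3 values of a group show only the spread between its libraries. Shares of counts alone do not tell less of a transcript from a larger pool of other RNA. The ERCC spike-ins (synthetic control RNAs) give a second scale, on which each ERCC count stood beside 358 to 907 gene counts with water and 569 to 942 with phthalates, so the groups overlap. When the spike-ins were added is not given in the labels.

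The homeodomain factor Nobox (GRCm38 chr6:43303674-43309554) was the most strongly expressed of the 7 genes. Water oocytes 1, 2 and 3 had 129, 117 and 150 counts of it, and phthalate oocytes 1, 2 and 3 had 114, 131 and 118. As CPM (a count divided by the library's gene counts and scaled to 1000000) these were 479, 389 and 529 for water and 452, 444 and 429 for phthalate. The phthalate oocytes all lay within the range of the water oocytes. The coefficient of variation (CV, the SD over the mean) across the 6 libraries was 10.4%, and counting alone would give 12.6% if each pair of counts stood for 1 read pair.

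Lhx8 (chr3:154306294-154330659), the LIM homeodomain factor, was likewise counted in every library. The water oocytes had 39, 42 and 55 counts of it and the phthalate oocytes 42, 40 and 61, or 145, 140 and 194 CPM against 166, 136 and 222 CPM. The groups overlapped, and replicate 3 was the highest in each. Its CV was 20.7%, the same as the 20.7% from counting read pairs alone. Of 11 other LIM homeobox genes, among them Lhx1, Lhx3 and Lhx9, 7 were at 0 in all libraries. The 11 together gave 6 to 24 counts per library, against 39 to 61 for Lhx8 alone.

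**Figure D1:**
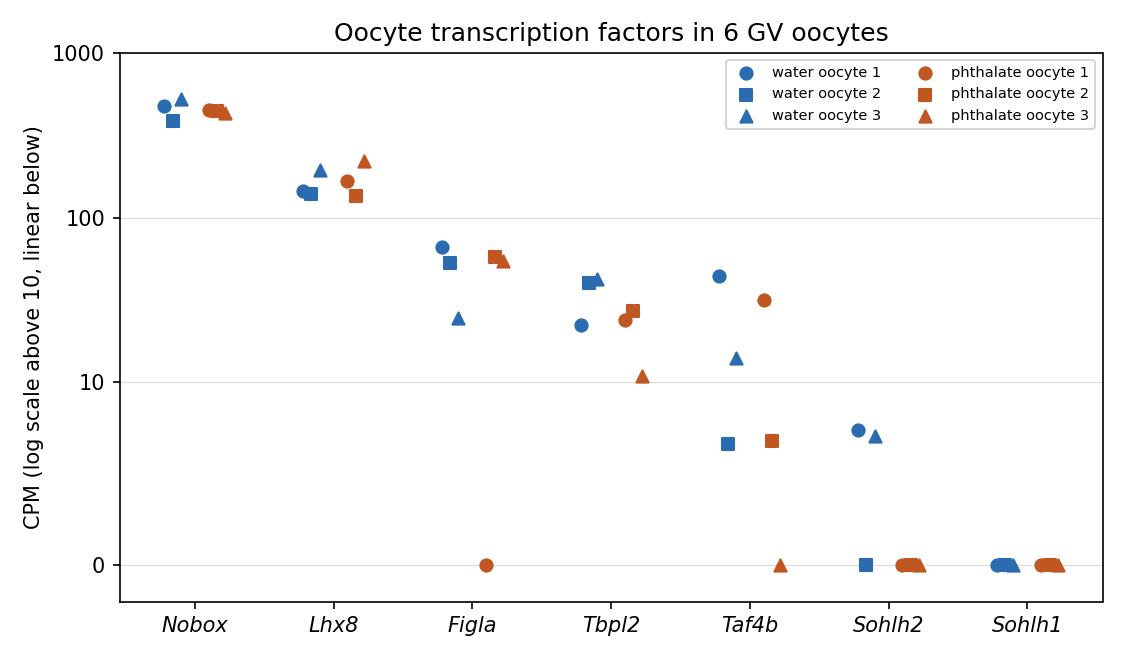
CPM of the 7 transcription factors (horizontal axis) in each of 3 water oocytes (blue) and 3 phthalate oocytes (orange), with marker shape for the replicate number; the vertical axis is logarithmic above 10 CPM and linear below. Nobox and Lhx8 form narrow bands in both groups, Figla is at 0 in phthalate oocyte 1, and Sohlh1 is at 0 throughout.

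Figla (chr6:86016171-86020996), which drives the egg coat genes, was present in 5 of 6 libraries. The water oocytes had 18, 16 and 7 counts of it and the phthalate oocytes 0, 17 and 15. The CPM values were 66.8, 53.2 and 24.7 against 0, 57.6 and 54.6. A count of 0 in phthalate oocyte 1 allows a level of up to 11.9 CPM (3 counts of its total), or 23.8 CPM if each read pair gave 2 counts, below each of the other 5 libraries. Nobox and Lhx8 were at 452 and 166 CPM in that same oocyte, within the range of the others. The CV of Figla was 59.1%, against 40.5% from counting read pairs alone.

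The other basic helix-loop-helix factors were at or near the limit of detection. Sohlh1 (chr2:25842995-25847248) had 0 of the 854185 counts from water oocytes and 0 of the 822225 from phthalate oocytes. Over all 6 libraries this allows a level of up to 1.79 CPM, or 3.58 CPM on read pairs. Sohlh2 (chr3:55182028-55209957) had 2, 0 and 2 counts after water injection and 0 in each phthalate oocyte. A count of 2 can come from 1 read pair, and 3 counts of the phthalate total would be 3.65 CPM (7.30 on read pairs), so this depth cannot show a difference.

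Both core promoter factors were low. Tbpl2 (chr2:24071721-24096595) had 6, 12 and 12 counts with water and 6, 8 and 3 with phthalates, or 22.3, 39.9 and 42.3 CPM against 23.8, 27.1 and 10.9 CPM. The groups overlapped through water oocyte 1. Taf4b (chr18:14783245-14900359) had 12, 2 and 4 counts against 8, 2 and 0, or 44.5, 6.65 and 14.1 CPM against 31.7, 6.78 and 0 CPM. Replicate 1 was the highest in each group, and the CV of Taf4b was 99.6%, against 65.5% from counting read pairs alone. In the RefSeq table the long non-coding RNA 4930543D07Rik and the pseudogenes Gm21055 and Gm9474 overlap Taf4b, and the use of strand in counting is not stated. No gene of that table overlaps the other 6 factors.

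Transcripts of different length were compared as CPM per kilobase of merged exon length (GENCODE M21). Nobox had a mean of 225 (range over libraries 193 to 263), Lhx8 66.0 (53.5 to 87.6) and Figla 51.2 (0 to 79.9). Tbpl2 followed with 20.1 (7.91 to 30.7), Taf4b with 3.36 (0 to 8.65) and Sohlh2 with 1.02 (0 to 3.14). Nobox stood above Lhx8 in 6 of 6 libraries, by 2.43 to 4.16 times. Below Nobox, each factor overlapped in range with the next one in this order. Per kilobase of the longest coding sequence the order was the same, the mean of Nobox was 1.89 times that of Lhx8, and Lhx8 (123 to 202) no longer overlapped with Figla (0 to 115).

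For scale, Nobox lay near Klf17, a Krüppel-like factor of the egg, with 252 CPM per kilobase (226 to 273). It exceeded Dazl, the germ cell RNA-binding protein (151, 129 to 190), Pou5f1, the pluripotency factor (111, 95.2 to 125), and Sall4 (82.5, 68.7 to 97.3). Per kilobase of coding sequence Dazl (646) and Klf17 (591) exceeded Nobox (287). Foxo3, which keeps primordial follicles at rest, was at 31.2 (15.8 to 51.4). Stra8, the switch into meiosis, and Dmrt1 were at 0 in all libraries, and Nanog, Sox2 and Zfp42 had 1 to 4 counts in all.

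The ratio of phthalate to water was taken from the counts summed over the libraries of a group and scaled by TMM factors, with a 95% interval that covers counting error only. Of the 7 factors, 3 passed the filter on low counts (Nobox, Lhx8 and Figla), and 0 of these 3 differed 1.5-fold or more. Over the 4644 genes that passed, 15.1% did, and over the 2784 of them whose mean count was 20 or more, a class that holds Nobox and Lhx8, 8.12% did. In 0 of the 3 did the CPM of the groups fail to overlap, and over all genes that passed this share was 10.0%. With 3 genes, neither count stands apart from the background. The median log2 ratio of the 3 was -0.053, beside 0.0089 for all genes that passed.

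The log2 ratio of Nobox was -0.053 (95% interval -0.26 to 0.16), from 396 water and 363 phthalate counts. That interval does not reach a 1.5-fold difference in either direction. For Lhx8 the log2 ratio was 0.14 (-0.20 to 0.49), from 136 and 143 counts, and its interval too stayed within 1.5-fold (0.58 on the log2 scale). Counting read pairs in place of single counts widened the intervals to -0.36 to 0.23 for Nobox and -0.37 to 0.62 for Lhx8, which then passed 1.5-fold at its upper end. Leaving out single libraries moved the Nobox ratio between -0.16 and 0.055 and the Lhx8 ratio between -0.11 and 0.34.

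The log2 ratio of Figla was -0.29 (-1.00 to 0.42), from 41 and 32 counts. Without phthalate oocyte 1, the library with no Figla count, it was 0.27, and without phthalate oocyte 2 it was -0.71. Tbpl2 and Taf4b did not pass the filter. Their log2 ratios were -0.75 (-1.70 to 0.16), from 30 and 17 counts, and -0.78 (-2.05 to 0.42), from 18 and 10 counts. The Taf4b ratio was 0.25 without water oocyte 1 and -2.55 without phthalate oocyte 1. The intervals of all 3 include 0. That of Figla ends under a 1.5-fold rise, but on read pairs its upper end is 0.75, and for Figla and Taf4b the spread between libraries exceeded that of counting read pairs.

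**Figure D2:**
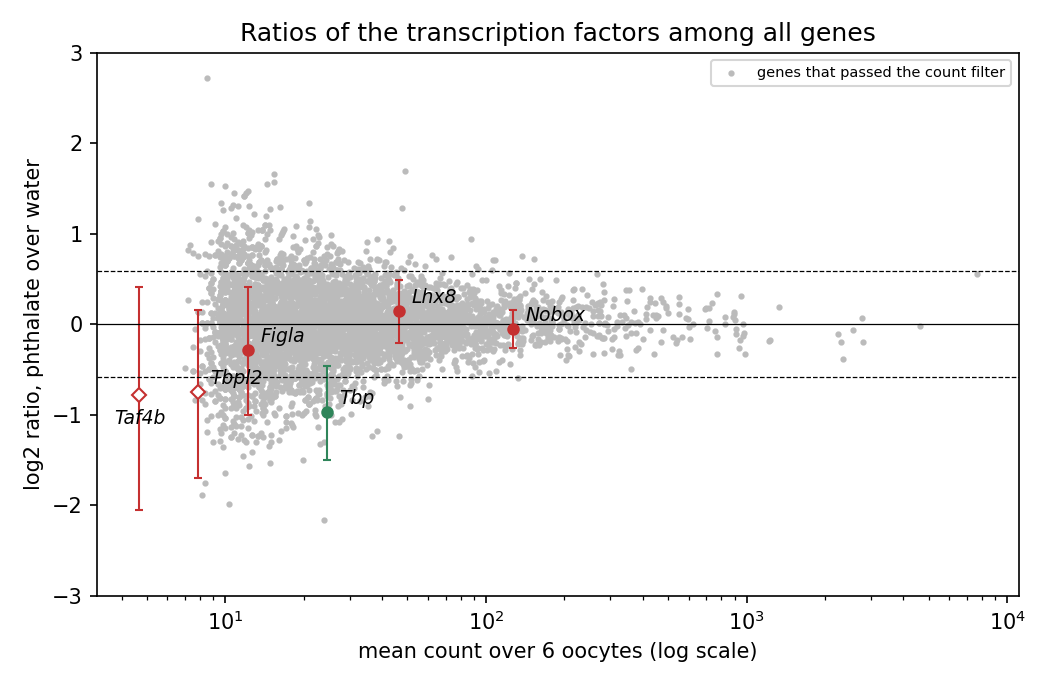
Log2 ratio of phthalate over water (vertical axis) against the mean count over 6 libraries (horizontal axis, log scale) for the 4644 genes that passed the filter (grey), with 5 transcription factors in red and Tbp in green; open diamonds mark factors below the filter, bars are 95% counting intervals and dashed lines are 1.5-fold. Nobox (-0.053) and Lhx8 (0.14) lie near 0, and Tbp (-0.97) lies outside the 1.5-fold line.

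Close relatives of the core promoter factors were read beside them. Tbp encodes the general TATA-binding protein, and Tbpl1 a testis-enriched relative. For Tbp the water oocytes had 41, 29 and 29 counts and the phthalate oocytes 15, 21 and 12, or 152, 96.4 and 102 CPM against 59.5, 71.2 and 43.6 CPM. The 3 phthalate oocytes all lay below the 3 water oocytes. Its log2 ratio was -0.97 (-1.50 to -0.46, and -1.72 to -0.25 on read pairs), from 99 and 48 counts, and it ranged from -1.13 to -0.76 when single libraries were left out. Per ERCC count, a scale added after the data were seen, Tbp was at 0.0544, 0.0858 and 0.0927 with water and at 0.0339, 0.0422 and 0.0411 with phthalates, again without overlap. The groups overlapped on that scale for each of the 6 factors with any count, Tbpl2 included. Tbp was included as a relative of Tbpl2. The 1.5-fold share of 8.12% and the share of 10.0% for groups that do not overlap apply to it too, and no replicate check exists.

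Tbp and Tbpl2 together had 47, 41 and 41 counts with water and 21, 29 and 15 with phthalates. Most of these were of Tbp (147, against 47 of Tbpl2), and the groups overlapped for Tbpl2 alone. Tbpl1 had 0, 2 and 4 against 0, 0 and 2 counts. Whether Tbp or Tbpl2 was the more abundant depended on the length used. Per kilobase of coding sequence (948 bases for Tbp, 1050 for Tbpl2) Tbp was higher in 6 of 6 libraries, with a mean of 92.3 against 26.4. Per kilobase of merged exons it was lower in 6 of 6, with 6.45 against 20.1. The 12 annotated Tbp transcripts merge to 13576 bases, and the longest of them alone has 12794. The 2 of Tbpl2 merge to 1379. Messenger RNA does not give the amount of either protein.

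Taf4 encodes the general counterpart of Taf4b in TFIID. It had 10, 14 and 15 counts with water and 9, 19 and 9 with phthalates, and its log2 ratio was -0.0038 (-0.69 to 0.68). Per kilobase of merged exons Taf4 was above Taf4b in 5 of 6 libraries, with means of 9.71 and 3.36. Per kilobase of coding sequence it was above in 4 of 6, the exceptions being replicate 1 of each group, where Taf4b was highest.

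**Figure D3:**
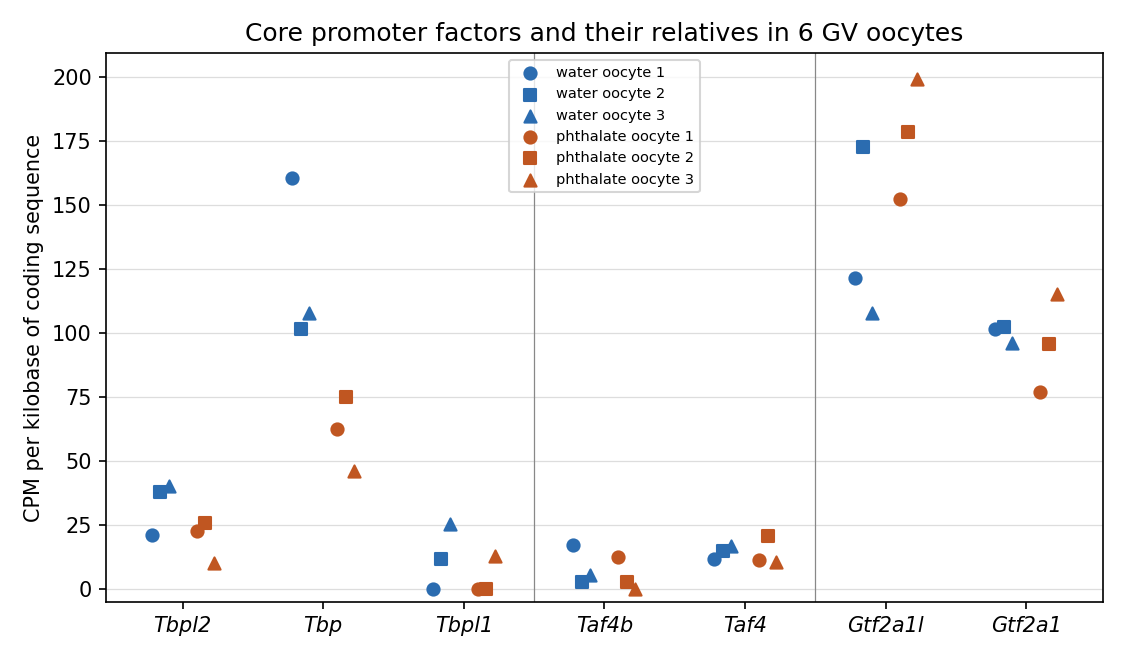
CPM per kilobase of coding sequence (vertical axis) for Tbpl2, Taf4b and the TFIIA genes beside their relatives, in each of 3 water oocytes (blue) and 3 phthalate oocytes (orange). Tbp exceeds Tbpl2 in every library on this scale and its phthalate values lie below its water values, while Taf4b is above Taf4 only in replicate 1 of each group.

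Tbpl2 acts with TFIIA, whose large subunit has a general form, Gtf2a1, and a germ cell form, Gtf2a1l. The germ cell form exceeded the general one per kilobase of merged exons in 6 of 6 libraries, by 4.59 to 8.11 times, and per kilobase of coding sequence in 6 of 6, by 1.59 times in the means. Gtf2a1l had a log2 ratio of 0.41 (0.11 to 0.72), from 162 and 205 counts with overlapping groups, and the interval on read pairs was -0.04 to 0.83. Gtf2a1 had a ratio of -0.036 (-0.47 to 0.39).

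The remaining core promoter genes went both ways. Of 21 genes of TFIID, TFIIA and TFIIB, the TBP relatives included, 16 passed the filter, with 7 higher and 9 lower in the phthalate group and a median log2 ratio of -0.013, beside 0.0089 for all genes that passed. Past 1.5-fold were Tbp, which was lower, and Taf11, a histone-fold subunit, which was higher with a log2 ratio of 0.86 (0.14 to 1.62) from 26 and 45 counts. On read pairs the interval of Taf11 includes 0 (-0.16 to 1.99). Taf11 reached the filter's level of 35.8 CPM in 3 phthalate libraries and 1 water library, so it entered through the group where it was higher. The 2 of 16 stand beside a background of 15.1%. The groups did not overlap for 4 of the 16, Tbp, Taf3, Taf7 and Taf11, against a background of 10.0%, and Taf11 adds no support to either count. Taf3, the subunit that reads methylated histone H3, had 115, 132 and 93 counts against 163, 159 and 123 and a log2 ratio of 0.46 (0.25 to 0.67). Taf7 had 102, 115 and 102 counts against 129, 128 and 125 and a log2 ratio of 0.33 (0.11 to 0.55). On read pairs the intervals were 0.16 to 0.75 for Taf3 and 0.016 to 0.64 for Taf7. Gtf2b, which encodes TFIIB, had a ratio of -0.027 (-0.24 to 0.19). Taf7 and Taf11 were singled out after their values were seen.

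**Figure D4:**
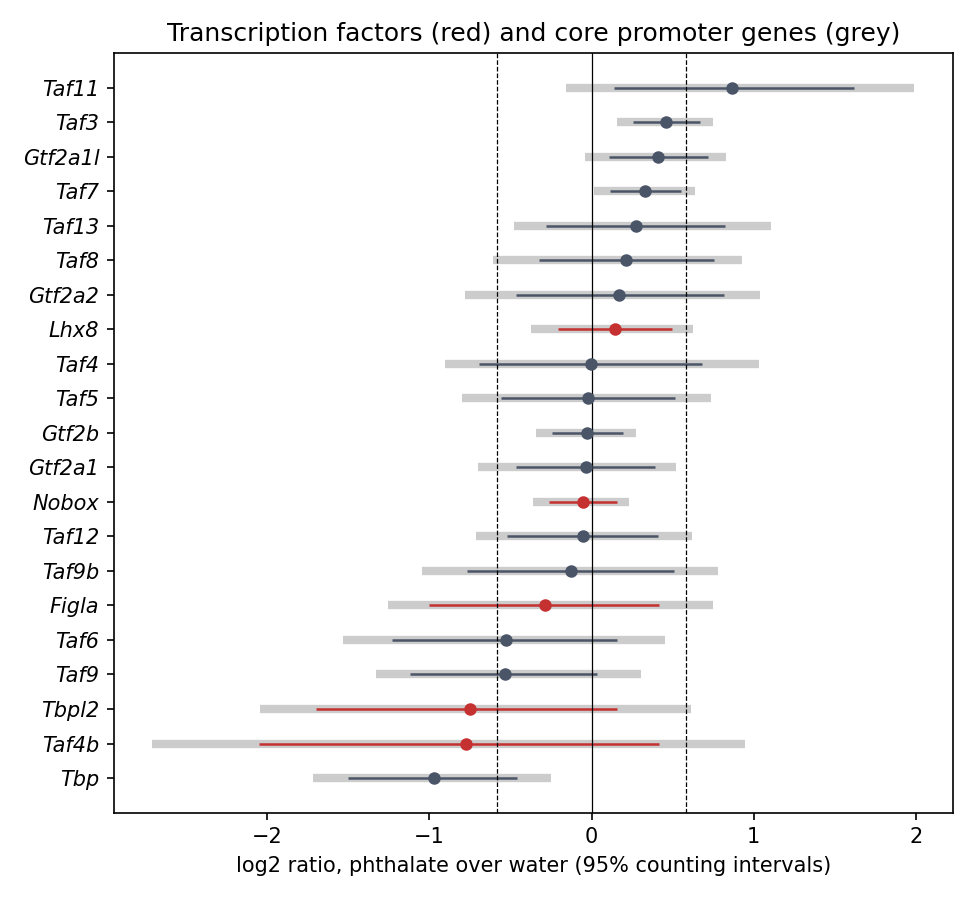
Log2 ratio of phthalate over water (horizontal axis) for 5 of the oocyte transcription factors (red) and the 16 core promoter genes that passed the filter (dark grey), sorted by ratio; thin bars are 95% counting intervals, pale bars the wider ones on read pairs, and dashed lines are 1.5-fold. Tbp is the lowest (-0.97) and Taf11 the highest (0.86), and the intervals of all 5 red genes include 0.

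The partners through which the factors act were measured as well. The Figla protein pairs with E proteins. Tcf3, which encodes E12 and E47, had 13, 14 and 9 counts with water and 19, 19 and 10 with phthalates. Its log2 ratio was 0.49 (-0.17 to 1.15). The other E protein genes did not pass the filter. Tcf12 had 18 counts with water and 12 with phthalates. Tcf4 had 8, 2 and 8 against 2, 2 and 0, with overlapping groups and a log2 ratio of -2.10 (-4.12 to -0.50), and on read pairs its interval includes 0 (-5.36 to 0.17). Of the Id genes, which encode inhibitors of such proteins, Id2 had 18 counts in 5 of 6 libraries, Id1 had 8, Id3 had 5 and Id4 had 0 over all libraries. Ldb1, the cofactor that bridges LIM homeodomain proteins such as Lhx8, had 16, 10 and 12 counts against 28, 24 and 10, and a log2 ratio of 0.78 (0.17 to 1.40) with overlapping groups. On read pairs that interval includes 0 (-0.10 to 1.68). Its close relative Ldb2 was at 0. Of the 13 partner genes, 5 (Tcf3, Ldb1, Ssbp2, Ssbp3 and Rlim) passed the filter, and 1 of the 5, Ldb1, passed 1.5-fold, against a background of 15.1%. Rlim, which encodes a ubiquitin ligase for these cofactors, had the most counts of the list, with a ratio of -0.10 (-0.61 to 0.41). Isl2 was the LIM homeobox gene besides Lhx8 that passed the filter, with 2, 6 and 7 counts against 10, 12 and 10. It reached the filter's level in 3 phthalate libraries and 0 water libraries, so it had to be higher with phthalates to be listed, and its difference is not read as a result. Lhx2, the next by counts, had 1, 1 and 4 against 0, 8 and 2. Ldb1, Tcf4 and Isl2 were singled out after their values were seen.

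Genes described as targets of Figla, Nobox, Sohlh1 or Tbpl2 were mostly above the factors themselves, with 11 of 14 above Nobox in mean CPM per kilobase on merged exons. Gdf9, the oocyte growth factor, had a mean of 4544 CPM per kilobase of merged exons, Dppa3, a maternal chromatin protein, 3878, the egg coat gene Zp3 2428 and Padi6, a protein of the oocyte cytoplasmic lattices, 1884, against 225 for Nobox and 51.2 for Figla. Kit, the receptor for the granulosa ligand, had the lowest mean of the 14 target genes at 19.3, and Jag1, the Notch ligand, followed with 59.5. All 14 passed the filter, with 5 higher and 9 lower in the phthalate group and a median log2 ratio of -0.047.

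Past 1.5-fold among the 14 targets was 1 gene, Kit. All 14 had a mean count of 20 or more, a class in which 8.12% of genes passed 1.5-fold, so 1 of 14 is near the background. The water oocytes had 48, 45 and 86 counts of it and the phthalate oocytes 34, 33 and 43, and the CPM of the groups overlapped. Its log2 ratio was -0.63 (-0.99 to -0.28, and -1.13 to -0.12 on read pairs), and without water oocyte 3 it was -0.26. Of 15 other germline and pluripotency factors 7 passed the filter, and 1 of them, Nr6a1, which encodes the germ cell nuclear factor, was past 1.5-fold, near the background of 15.1%. Nr6a1 had 40, 23 and 24 counts against 21, 12 and 16, with overlapping groups. Its log2 ratio was -0.76 (-1.29 to -0.23, and -1.52 to -0.012 on read pairs), or -0.43 without water oocyte 1.

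Among the 2783 other genes whose mean count was 20 or more, those whose centred log2 CPM over the 6 libraries lay nearest to that of Nobox were Rps7, a ribosomal protein gene, Acot7, an acyl-CoA thioesterase gene, and Cdk2ap2. Their root-mean-square differences from Nobox were 0.048, 0.051 and 0.072, beside a median of 0.324 over the genes searched. Rps7 had 120, 119 and 147 counts with water and 114, 126 and 121 with phthalates. With 6 values per gene from the same libraries, this is a description of nearness only.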

How the data were processed

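The table that the authors deposited holds raw read counts, as whole numbers, of 25239 genes given by symbol and of 92 ERCC spike-ins (synthetic control RNAs). Per the labels' protocols, Smart-seq3 libraries (full-length complementary DNA primed with oligo(dT)) were sequenced on a MiSeq as 150 bp read pairs. Per the submitters' processing notes, cutadapt, Trimmomatic, HISAT2, DESeq2 and the build mm10 were used, with no roles or versions. The counting tool, annotation, strand and molecular identifiers are not given in the sources used here. From 68.0% to 71.1% of counts from 1 to 20 were even, so both mates of a pair may have been counted.

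ERCC counts stayed out of totals. Genes were filtered with filterByExpr (minimum count 10, minimum total 15) and totals scaled by TMM (edgeR 4.0.16, R 4.3.3). Ratios are of group sums, with exact Clopper-Pearson intervals (95%) of 2 counts given their sum. These were checked on simulated independent (Poisson) counts, the case for which they are built. That check does not show how well they cover the real counts. PCR copies are not independent molecules, so intervals and limits cover counting error only. A group is 1 sample, so no test was made. All 7 factors are named, with listed genes that pass 1.5-fold at a mean count of at least 20, the most abundant 2 of a list, the relatives Tbp, Tbpl1 and Taf4, and the 3 genes nearest to Nobox (prior count 2). The members and lists were chosen with earlier results of these data known. Positions and lengths come from GENCODE M21 (GRCm38, the assembly of mm10), and promoters from RefSeq.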

Additional observations from a re-analysis of the deposited data

How the results depend on the processing

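No paired analysis was possible because a group counts as 1 sample, which leaves no fit that a replicate block could enter. Replicate numbers 1 to 3 occur in both groups, but the labels tie them to no shared animal, culture or day, so no ratios were taken within a number. The scalings (DESeq2 1.42.0 size factors, library totals alone), read pairs and the mean over oocytes did not change the direction of any ratio of a single factor. Among the factors that passed the filter, the number past 1.5-fold stayed at 0. Taf4b and Tbpl2, which did not pass it, had ratios past 1.5-fold in each of these settings. On read pairs 2 factors (Nobox and Lhx8) passed the filter in place of 3, and their median was 0.030. Without a gene filter 6 factors entered, of which 2 (Taf4b and Tbpl2) passed 1.5-fold, and the median log2 ratio was -0.30, because more factors were included. Sohlh2 entered that median as a bound, with 3 counts in place of its 0, and without it the median of the other 5 was -0.27. Leaving out 1 library gave 0 to 2 factors past 1.5-fold, medians from -0.37 to 0.075, and Taf4b ratios from -2.55 to 0.25, the latter without water oocyte 1. Without water oocyte 1, and without each phthalate oocyte in turn, 4 factors passed the filter in place of 3. Those counts and medians therefore cover a different set of factors. For the other factors it gave ratios from -0.71 to 0.27 (Figla), -0.11 to 0.34 (Lhx8), -0.16 to 0.055 (Nobox) and -0.99 to -0.48 (Tbpl2). The length used moved the CPM per kilobase, to 80.4 for Lhx8 with the longest transcript, and to 152 for Lhx8, 287 for Nobox and 6.74 for Taf4b with the longest coding sequence, a length chosen after the data were seen. Counting ERCC RNAs in the totals moved no level beyond its spread. Figla, Tbpl2, Taf4b and the Sohlh genes had at most 18 counts in a library, so their intervals are wide.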

Other observations

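Phthalate oocyte 3 held the lowest counts and CPM of Tbpl2 (3 counts), Taf4b (0 counts) and Tbp (12 counts) of the 6 libraries, and also the highest CPM of Lhx8 (222). Per ERCC count it stayed lowest for Taf4b and highest for Lhx8. On that scale Tbpl2 was lowest in water oocyte 1 (0.00797, against 0.0103 in phthalate oocyte 3). Tbp was lowest there in phthalate oocyte 1 (0.0339, against 0.0411). Phthalate oocyte 3 had 274918 gene counts and the lowest TMM factor (0.935), and its cumulus and granulosa markers summed to 10 counts, the lowest of all. Without Nr5a2 these markers summed to 2 counts in it and to 0 in water oocyte 2, so it was then not the lowest. The part of depth, TMM factor and markers in the values was not tested, and phthalate oocyte 3 was singled out after its values were seen.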
